A study of Mus musculus with 70 samples.

Results

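The line difference between mice bred for high anxiety-related behavior (HAB) and mice bred for low anxiety-related behavior (LAB) was compared between 2 brain regions, the central amygdala (CeA) and the nucleus accumbens (NAc). The comparison used the 20 of 70 two-color cDNA microarrays that are titled CeA or NAc, 10 for each region, and asked for each probe whether the ratio of HAB to LAB differed between the regions and whether it pointed in opposite directions. Both lines are of CD-1 background, and the mice were males of 10 weeks, taken a few days after a tail suspension test. For each line and region RNA was amplified from tissue punches of 6 mice and combined into 1 pool, and the CeA punch lay at the dorsomedial side of the external capsule's ventral end, while the NAc punch held the core with some shell around the anterior commissure. In each region 5 arrays carried HAB RNA in the dye Cy3 and LAB RNA in Cy5, and 5 carried the dyes the other way round. The 10 arrays of a region are therefore repeated hybridizations of 1 HAB pool against 1 LAB pool, and every p-value below measures the spread between arrays, not between mice.

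The CeA is a GABAergic output nucleus of the amygdala through which learned and innate threat reach hypothalamus and brainstem. The NAc, in the ventral striatum, is built mainly of GABAergic medium spiny neurons that receive dopamine and serve reward and motivated action. Both hold astrocytes, oligodendrocytes and vessels beside their neurons, and a pooled punch cannot tell a changed number of cells of a type from a changed amount of RNA per cell.

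Of 24192 spots, 22824 carried cDNA and were analysed, and 16052 of these lay above the array's empty spots on at least 10 of the 20 arrays in either line. On single arrays 25% to 74.6% of probes lay above the empty spots in the HAB channel and 48.8% to 70% in the LAB channel. The lowest share belonged to replicate 1 of the CeA arrays with HAB in Cy3, and replicate 4 of that group had the highest median intensity of the 20 arrays in both channels. Over the probes above the empty spots, log ratios of arrays of 1 region and 1 dye orientation correlated with median r between 0.10 and 0.26, whereas the 2 orientations of one region had a median r of -0.04 in CeA and 0.03 in NAc. Values shared by both orientations were thus a small part of the spread between arrays, and both orientations entered every mean with equal weight. The date in the quantification files split the CeA arrays into 2 and 8 and put all 10 NAc arrays on a date of their own, so that region and date cannot be told apart.

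The region labels were checked against marker genes by the probes' mean level in both lines, on a log2 scale. Probes of striatal projection neuron genes had a median level difference, CeA minus NAc, of -0.32 and probes of CeA genes one of -0.29, compared with -0.02 over all probes, so that the medians of the lists did not tell the regions apart. Over the 41 striatal probes the differences ran from -2.44 to 1.16, so single striatal probes lay far out on both sides of 0. Among those below 0, probes of Arpp21, a calmodulin regulator of medium spiny neurons, had -1.92 and -1.98. Tac1, the substance P precursor, had -1.35. Tac2, which encodes neurokinin B, had the highest value of the CeA list with 1.27, and the brighter probe of Prkcd, which marks a class of CeA neurons, had -1.26. These levels are given as a description, since the files of the 2 regions carry different dates.

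Across the 22824 probes, limma called 677 (2.97%) with a line ratio that differed between CeA and NAc at an adjusted p under 0.05. Relative to NAc, HAB/LAB was higher in CeA for 305 probes (1.34%) and lower for 372 (1.63%). Of the 677, 667 had opposite signs in the 2 regions and 10 the same sign. A test of the difference between regions favors probes on either side of 0, so this split partly follows from the choice. Asking in addition for at least 1.3-fold in each region left 281 probes with opposite line differences, of which 142 were higher in HAB in CeA and lower in NAc, and 139 were lower in HAB in CeA and higher in NAc. In these 281 probes the direction was set by the choice, so their values are a description. Without the 2 CeA arrays of the smaller date 463 probes passed the test and 249 were opposite, of which 203 were among the 281. The ranges of the 10 arrays of each region did not overlap for 66 of the 142 and 19 of the 139, and for 0.517% of all probes. Named genes or clones stood behind 95 of the 142 and 119 of the 139.

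**Figure D1:**
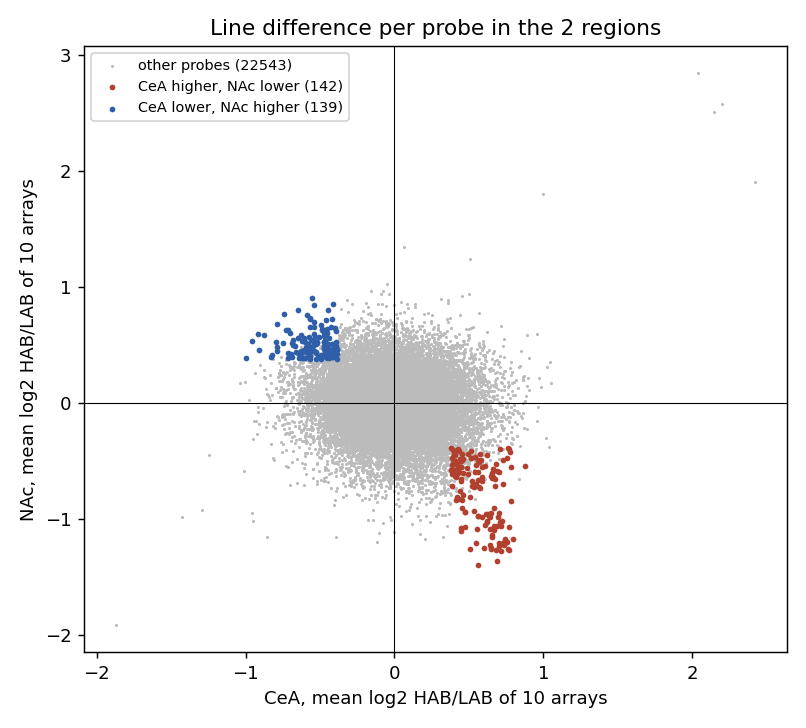
Mean log2 HAB/LAB of 10 CeA arrays (x axis) against that of 10 NAc arrays (y axis), 1 point per probe. The 142 red and 139 blue probes had opposite line differences of at least 1.3-fold with a contrast past limma's test, the red points reach -1.36 in NAc, and the few points far out on the diagonal have the same direction in both regions.

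Taken region by region, limma called 381 probes (1.67%) for the line ratio in CeA and 358 (1.57%) in NAc. These share one estimate of the spread over both regions, and fits to each region's 10 arrays alone called 16 in CeA and 290 in NAc. By the stricter count of a mean of at least 1.3-fold with 10 of 10 arrays in 1 direction, 231 probes (1.01%) counted in CeA and 454 (1.99%) in NAc, but the CeA count was 481 without replicate 4 and 356 without replicate 2 of the arrays with HAB in Cy3. Of these, 43 probes counted as higher in CeA and lower in NAc, 6 as lower in CeA and higher in NAc, 7 as higher in both and 6 as lower in both. Across all probes the line ratios of CeA and NAc correlated with r = -0.10 (n = 22824 probes), a description only, since all probes of a region share 2 pools and 10 arrays.

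In the probes lower in HAB in CeA and higher in NAc the largest contrast belonged to a probe named on the array as RIKEN cDNA 5730507C05, which RefSeq lists under Srsf1, a splicing factor of the serine and arginine-rich family. Its log2 HAB/LAB ran from -1.61 to 0.13 in CeA with a median of -0.96, and from 0.27 to 0.97 in NAc with a median of 0.63. No CeA array reached the NAc range. The contrast, CeA minus NAc, was -1.52 ± 0.21 (SE, 10 arrays per region, limma adjusted p = 9.49e-05).

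A probe for peptidylprolyl isomerase D, a prolyl isomerase that assists protein folding, ran from -2.03 to -0.06 in CeA with a median of -0.52 and from 0.38 to 1.27 in NAc with a median of 0.74. All 20 arrays lay on their region's side of 0, and the contrast was -1.51 ± 0.23 (SE, limma adjusted p = 0.000416). Mtss1, here the probe RIKEN cDNA 2310003N14, encodes an actin-binding protein that shapes membranes and dendritic spines. It was below 0 on all 10 CeA arrays, from -2.42 to -0.26 with a median of -0.80, and above 0 on 9 of 10 NAc arrays, from -0.15 to 0.97 with a median of 0.62. The contrast was -1.49 ± 0.23 (SE, limma adjusted p = 0.000563).

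Several genes of this direction were seen by more than 1 probe. Sperm associated antigen 9, a scaffold of JNK signaling and of kinesin transport, had 2 probes and both were among the 139. The first had a mean log2 HAB/LAB of -0.65 ± 0.42 in CeA and 0.80 ± 0.28 in NAc (SD, n = 10 arrays), and the second -0.46 ± 0.42 and 0.46 ± 0.29. Stathmin 1, which destabilizes microtubules, also had both of its probes among them, with -0.52 and -0.46 in CeA and 0.52 and 0.60 in NAc. The 2 probes of the WD-40-repeat protein with a SOCS box 1 had -0.57 and -0.70 in CeA and 0.72 and 0.61 in NAc.

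Gja1 encodes connexin 43, the main gap junction protein of astrocytes, and 2 of its 3 probes were among the 139. The first ran from -1.12 to 0.14 in CeA (median -0.62) and from 0.06 to 0.93 in NAc (median 0.55), the second from -1.30 to 0.42 (median -0.52) and from -0.09 to 1.26 (median 0.59). The ranges of the regions overlapped in both, from 0.06 to 0.14 for the first and from -0.09 to 0.42 for the second. In the second probe the CeA value came from 1 orientation, with -0.03 when HAB was in Cy3 and -0.94 when HAB was in Cy5. The contrasts were -1.14 ± 0.18 and -1.12 ± 0.18 (SE, limma adjusted p = 0.000754 and 0.000563). The third probe also lay above the empty spots and had a contrast of -0.22 (limma adjusted p = 0.829).

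Other named members of this direction, chosen after their values were seen unless they stood on a list, were the following. Qdpr, which regenerates tetrahydrobiopterin for monoamine synthesis and is abundant in oligodendrocytes, had -0.57 ± 0.43 in CeA and 0.66 ± 0.31 in NAc (SD, n = 10 arrays). Sdha, the flavoprotein of succinate dehydrogenase, had -0.60 ± 0.30 and 0.39 ± 0.19, with all 20 arrays on their region's side of 0. Optic atrophy 1, a mitochondrial fusion protein, had -0.42 ± 0.37 and 0.85 ± 0.53, but another and brighter of its 3 probes passed in the other direction, with 0.27 and -0.56 (contrast 0.83, limma adjusted p = 0.0333, and 0.0637 without 1 CeA array). Adcyap1r1, the receptor of the stress-related peptide PACAP, had -0.42 ± 0.71 and 0.72 ± 0.46, and Calcrl, a receptor of CGRP and adrenomedullin, -0.40 ± 0.58 and 0.62 ± 0.58. For Calcrl the CeA mean was -0.78 on the arrays that carried HAB in Cy3 and -0.01 on those of the other orientation, and -0.27 without replicate 1 of the former. One probe each of the transferrin receptor, kinesin 5C and Marcks lay between -0.60 and -0.55 in CeA and between 0.44 and 0.48 in NAc. The other probes of these 3 genes did not pass the test. That of the transferrin receptor, above the empty spots, had a contrast of the other sign, and those of kinesin 5C and Marcks had the same sign.

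Of the remaining named probes with the largest contrasts in this direction, Mrfap1 had a median of -1.15 in CeA and 0.40 in NAc, and its other probe -0.91 and 0.37, both past the test. The ring finger protein 44 had means of -0.73 and 0.63, and selenoprotein P, a plasma selenium carrier, means of -0.72 and 0.63. The beta subunit of succinate-CoA ligase, an enzyme of the citric acid cycle, had means of -0.54 and 0.85. Other probes of the last 2 genes also passed, with contrasts of -0.97 each, whereas the dim other probe of ring finger protein 44 had 0.77 (limma adjusted p = 0.188). Tm9sf3 had -0.55 and 0.90, but its 5 other probes had contrasts between -0.56 and -0.09 and none passed. LRRFIP1, the leucine rich repeat interacting protein 1, had -0.91 ± 0.96 and 0.46 ± 0.79 (SD, n = 10 arrays), and its call held in 8 of 20 fits that left out 1 array.

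**Figure D2:**
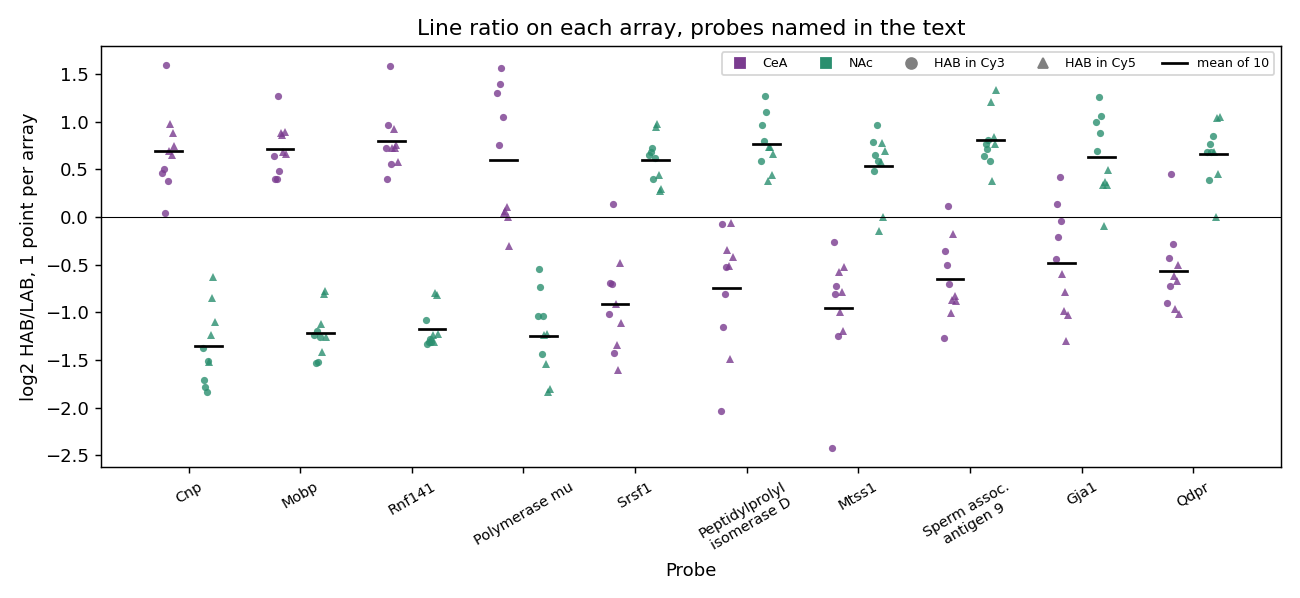
Log2 HAB/LAB of 10 probes on each of the 20 arrays, in CeA (purple) and NAc (green), with circles for HAB in Cy3, triangles for HAB in Cy5 and a bar at the mean of 10. The 4 probes on the left are higher in HAB in CeA and lower in NAc, with no overlap of the regions in any of them, and the 6 on the right run the other way.

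Probes higher in HAB in CeA and lower in NAc reached larger contrasts, up to 2.05 on the log2 scale (4.13-fold). The largest belonged to a probe of Cnp, a myelin enzyme of oligodendrocytes. It ran from 0.04 to 1.59 in CeA (median 0.67) and from -1.83 to -0.63 in NAc (median -1.45), so that the regions did not overlap, and the contrast was 2.05 ± 0.20 (SE, limma adjusted p = 1.02e-06). Mobp, a structural myelin protein, ran from 0.40 to 1.27 in CeA (median 0.67) and from -1.53 to -0.77 in NAc (median -1.25), with a contrast of 1.93 ± 0.17 (SE, limma adjusted p = 3.75e-07). Both probes were among the brightest of the array, with mean log2 intensities of 14.69 and 14.33.

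A further probe with values close to these was Rnf141 (RIKEN cDNA 2610110L04), a ring finger protein, with a mean log2 HAB/LAB of 0.79 ± 0.32 in CeA and -1.17 ± 0.20 in NAc (SD, n = 10 arrays). E2f4, a cell cycle transcription factor, had 0.77 ± 0.35 and -1.26 ± 0.24, and Pamr1 0.77 ± 0.27 and -1.26 ± 0.24. Each of these genes had 1 other probe, and none of those was among the 142. That of E2f4, above the empty spots, had a contrast of the other sign. That of Rnf141 and that of Pamr1, a dim one, had the same sign. Calpain small subunit 1 had 0.74 ± 0.60 and -1.17 ± 0.62, the short coiled coil protein 0.70 ± 0.46 and -1.21 ± 0.46, and RAB23, a small GTPase, 0.70 ± 0.68 and -1.23 ± 0.44. The probe of DNA polymerase mu differed between the dye orientations in CeA, with 1.21 when HAB was in Cy3 and -0.02 when HAB was in Cy5, while NAc had -0.96 and -1.53. Its CeA mean therefore came from 1 orientation, and RAB23 likewise had 1.23 and 0.17 in CeA. Calpain small subunit 1 leaned on the other orientation in CeA, with 0.92 to 1.46 when HAB was in Cy5. With HAB in Cy3 it had 1.34 on replicate 4 and -0.11 to 0.17 on the other arrays. The CeA sign was the same in both orientations for 123 of the 142 probes and 130 of the 139, the NAc sign for 141 and 136. The call held without each of the 20 arrays in turn for 115 of the 142 and 102 of the 139.

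Over the 20 arrays 59 probes, the Cnp probe included, followed the bright Cnp probe with r over 0.9, and 49 of them were among the 142. Their median log2 HAB/LAB was 0.63 in CeA and -1.01 in NAc, and 43 of the 59 had a mean log2 intensity over 13, which 190 of all probes reached. Named probes among them were tumor protein D52, the reticulon 4 receptor, dystonia 1, Chd4, solute carrier family 12 member 3 and expressed sequences similar to the mitochondrial proteins COII and URF1. The step between the regions, which also chose the 142, enters this r, so the overlap partly follows from the choice. After removal of the mean of each region and orientation, the median r of the 59 with Cnp was 0.61 and the lowest -0.52. The points share arrays and pools, and the likeness is a description.

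Brightness moved with this result over the whole array. Among the 80 probes with a mean log2 intensity over 14 the median line ratio was 0.36 in CeA and -0.47 in NAc, and among the 110 probes between 13 and 14 it was 0.31 and -0.15. In the 742 probes between 11 and 12 it was -0.13 in CeA and 0.06 in NAc. Of the probes over 14, 35% were among the 142 and none among the 139. Of those between 10 and 11, 0.51% were among the 142 and 1.76% among the 139. The dimmest probes, with log2 intensities up to 8, held 29 of the 142 and 4 of the 139, and 35 of the 142 did not lie above the empty spots on 10 arrays in either line, compared with 5 of the 139.

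**Figure D3:**
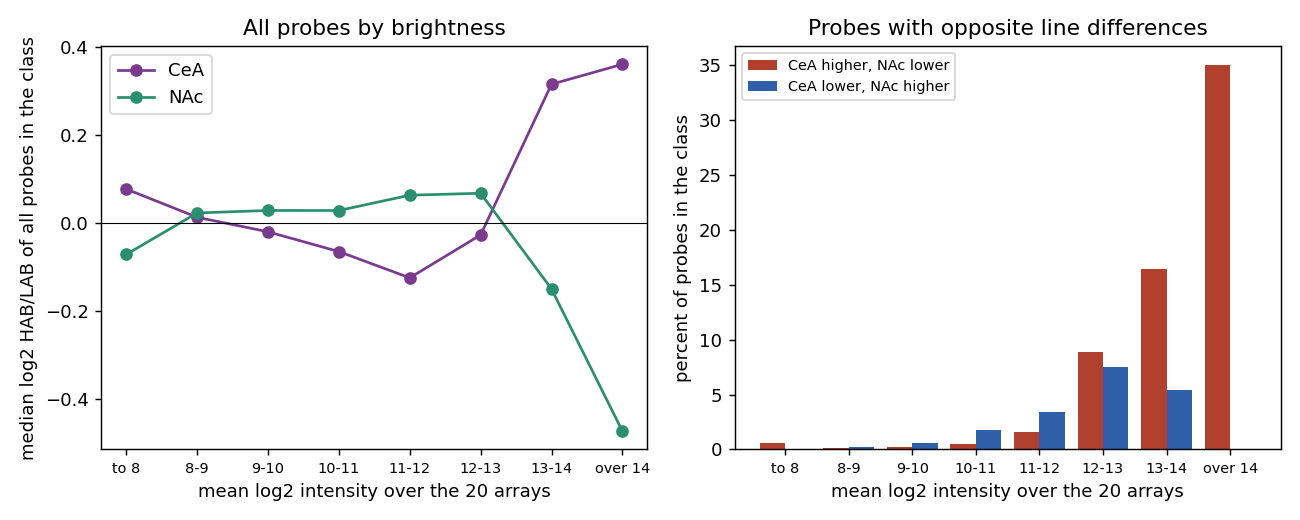
Left, median log2 HAB/LAB of all probes in 8 classes of mean log2 intensity, in CeA (purple) and NAc (green). Right, percent of the probes of each class with opposite line differences. In the brightest class the medians are 0.36 and -0.47, and 35% of its probes are higher in HAB in CeA and lower in NAc.

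Some of the largest values moved with the normalization, and the parts of brightness and of print position in them were not tested further. After each array was also centered on the median of its brightness class, the contrast of Cnp was 1.15 (limma adjusted p = 0.000218) and that of Mobp 1.03 (limma adjusted p = 0.000427), while Rnf141 kept 1.57. With loess fitted within each print block instead, Cnp had 0.76 (limma adjusted p = 0.0198) and Mobp 0.81 (limma adjusted p = 0.00786). There E2f4 had 1.08, Pamr1 1.00 and Rnf141 1.61. In the authors' own table of normalized ratios Cnp had 0.17 in CeA and 0.04 in NAc, with a contrast of 0.13 (limma adjusted p = 0.639), and Mobp had a contrast of 0.47 (limma adjusted p = 0.069). Both calls were lost there. E2f4 and Pamr1 passed with contrasts of 0.93 and 0.79, beside 2.03 and 2.02 above, and Rnf141 had 1.70 (limma adjusted p = 1.78e-06) and solute carrier family 12 member 3 had 2.36 (limma adjusted p = 1.51e-09). In the authors' table the probes of the other direction moved less. Of the 139, 110 had a value on all 20 arrays of that table, and 110 of these 110 had both signs as before, with a median contrast of -0.88 beside -1.04 over the 139. Of the 142, 76 had such a value and 71 of these had both signs as before, with a median contrast of 0.98 beside 1.26 over the 142. With loess within print blocks 123 of the 142 and 123 of the 139 passed the test.

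Other probes of the same genes leaned to CeA lower for both sets, the direction of the 139 and against that of the 142. The 75 genes with a probe among the 139 had 143 further probes outside the 281, and 100 of these (69.9%) had a contrast below 0, where 49.5% of all probes did. The 42 genes with a probe among the 142 had 78 further probes, and 32 of these (41%) had a contrast above 0, compared with 50.5% of all probes. Among probes above the empty spots the shares were 72.4% against a background of 54.6% for the first direction and 33.9% against 45.4% for the second. The difference between the sets was not tested. The further probes had a median log2 intensity of 9.14 for the first direction and 8.66 for the second, beside 10.41 and 11.75 for the chosen ones.

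Myelin genes are an example. The oligodendrocyte list had 67 probes of 29 genes, of which 4 passed the contrast test with CeA higher and 3 with CeA lower, where 1.34% and 1.63% of all probes did. The median contrast was -0.20, compared with 0.00 over all probes, and 44 of the 67 were below 0, or 40 of the 53 above the empty spots. Mbp, the major myelin protein, had 6 probes. The second dimmest of them ran from -0.47 to 1.36 in CeA and from -1.44 to -0.59 in NAc (contrast 1.54, limma adjusted p = 2.14e-05), with CeA means of 0.84 and 0.11 when HAB was in Cy3 and in Cy5. Its brightest probe went the other way, from -0.90 to 0.49 in CeA and from -0.19 to 0.75 in NAc (contrast -0.86, limma adjusted p = 0.016), and another had -0.70 (limma adjusted p = 0.0466), a call that held in 5 of 20 fits that left out 1 array. The remaining Mbp probes had contrasts of -0.73, -0.40 and -0.23 that did not pass the test. The 5 further probes of Mobp had contrasts from -0.54 to 0.54 and the 2 of Cnp, both dim, 0.50 and 0.86, and none passed. Gelsolin, an actin-severing protein of oligodendrocytes, had 0.35 in CeA and -0.61 in NAc (contrast 0.96, limma adjusted p = 0.00316), with CeA means of 0.98 and -0.29 in the 2 orientations. The calls of the list thus went both ways.

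Among astrocyte genes 4 of 59 probes passed with CeA lower and 1 with CeA higher, where 1.63% and 1.34% of all probes did. Beside the 2 probes of Gja1 these were glutamine synthetase (Glul), with -0.64 in CeA and 0.17 in NAc, and carboxypeptidase E, which also processes neuropeptides, with -0.60 and 0.22. Of the 9 Glul probes 1 passed. Sparcl1 was the probe with CeA higher, with 0.10 in CeA, from 0.57 and -0.37 in the 2 orientations, and -0.73 in NAc. Cldn5, the tight junction protein of brain endothelium, had -0.32 in CeA and 0.89 in NAc (contrast -1.21, limma adjusted p = 0.01). It was the single call among 36 vessel probes, where 1.63% of all probes passed with CeA lower. Among 24 microglial probes 1 passed in each direction, beside the same shares over all probes. Cathepsin S was lower in CeA, with -0.69 and 0.05, and Cd14, a dim probe, was among the 142, with a call that held in 5 of 20 fits that left out 1 array.

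Of 41 probes for striatal projection neurons 3 passed, and in all 3 CeA was higher, where 1.34% of all probes passed in that direction. They were Rarb, a retinoic acid receptor, with 0.32 in CeA and -0.76 in NAc (contrast 1.08, limma adjusted p = 0.000671), and 2 of the 4 probes of Arpp21, with 0.37 and 0.32 in CeA and -0.30 and -0.35 in NAc. In CeA these came mainly from the arrays with HAB in Cy3, with 0.63 and 0.56 beside 0.12 and 0.07 with HAB in Cy5. The median contrast of the list was 0.05. Among the 27 probes of the CeA list Nts, the neurotensin precursor, had 0.39 and -0.40 (limma adjusted p = 0.0481), but 1 CeA array stood at 1.89 and the other 9 between -0.08 and 0.55. Without it the CeA mean was 0.24, under the limit of 1.3-fold (limma adjusted p = 0.0579), and the call of Nts held in 2 of 20 fits that left out 1 array. Calcrl passed with CeA lower. In the neuropeptide list of 40 probes Scg2, a granin of dense-core vesicles, had 0.45 in CeA and -0.65 in NAc (limma adjusted p = 0.00571), with 0.95 and -0.05 in CeA when HAB was in Cy3 and in Cy5, and its 1 other probe, a dim one, had a contrast of -0.64 (limma adjusted p = 0.363). The lists of glutamate receptors (22 probes), monoamine and opioid genes (20), excitatory forebrain neurons (37), pallidal, thalamic and hypothalamic genes (18), choroid plexus (22), blood (9) and immediate-early genes (25) held no probe that passed in limma, and at an unadjusted p under 0.05 they held 1, 2, 3, 2, 2, 1 and 6. Over all 22824 probes 3290 were at an unadjusted p under 0.05. Slc6a11, a GABA transporter, was the single call among 41 interneuron and GABA probes, where 1.63% of all probes passed with CeA lower. It had -0.22 in CeA and 0.47 in NAc, and its call held in 15 of 20 fits that left out 1 array.

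Genes of mitochondria, of protein synthesis and of exocytosis held calls in both directions, beside shares of 1.34% higher and 1.63% lower over all probes. The lists were not tested against these shares. Of 97 probes for oxidative phosphorylation 3 were higher and 3 lower in CeA. Ndufv1 of complex I had 0.45 in CeA and -0.90 in NAc (limma adjusted p = 4.03e-05), with 1.03 and -0.13 in CeA when HAB was in Cy3 and in Cy5, and Cox6c had 0.33, from 0.61 and 0.05 in the 2 orientations, and -0.61 in NAc. The ATP synthase subunits Atp5pb and Atp5l had -0.38 and -0.36 in CeA and 0.31 and 0.34 in NAc, calls that held in 15 and 14 of 20 fits that left out 1 array. Of 101 ribosomal probes 2 were higher and 1 lower, the latter being Rps3a1 with 0.07 in CeA and 1.34 in NAc. Of 70 probes for vesicle exocytosis 2 were higher and 1 lower. Complexin 1, a regulator of vesicle fusion, had 0.12 in CeA and -1.04 in NAc, a call that held in 14 of these 20 fits, and syntaxin 7 had -0.73 and 0.34. Neurogranin, a postsynaptic calmodulin-binding protein on none of these lists, had 0.73 ± 0.43 and -0.49 ± 0.29 (SD, n = 10 arrays), but its other 2 probes had contrasts of -0.51 and 0.13.

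Of 61 probes for a list of 30 genes, most of them marked for PCR or named by the study, 2 passed with CeA higher and 2 with CeA lower, where 1.34% and 1.63% of all probes did. The study chose its genes on arrays that include these ones, so they are no independent evidence. Rab6a, a small GTPase of Golgi transport, had 2.04 in CeA and 2.84 in NAc with one probe and 2.20 and 2.58 with another, Slc25a17, a peroxisomal carrier, had -1.87 and -1.91, and Mmp15, a membrane-type metalloproteinase, had -1.29 and -0.92. None of these 4 contrasts passed limma's test, which does not show that the regions were alike. Of the other 2 probes of Rab6a both had -0.15 in CeA, and the other probe of Slc25a17 had 0.15 and 0.04. The metallothionein Mt1 had -0.65 and -0.69. The kinase-like Trib2 had opposite differences, with -0.45 ± 0.38 in CeA and 0.64 ± 0.55 in NAc (SD, n = 10 arrays; limma adjusted p = 0.00566). Of 4 probes of synaptotagmin 4 (Syt4) 1 passed, with 0.89 in CeA and 0.15 in NAc, and its call held in 13 of 20 fits that left out 1 array. The mitochondrial fission factor Mff, on the list from earlier results of these data, had -1.25 in CeA and -0.44 in NAc with the probe that passed, in 18 of the 20 fits.

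The level in each pool is given for 3 probes. On the normalized log2 scale, Cnp had 14.82 ± 0.34 in the HAB pool and 14.12 ± 0.47 in the LAB pool of CeA, and 14.20 ± 0.25 and 15.56 ± 0.35 in the pools of NAc (SD, n = 10 arrays). The LAB pool of NAc was the highest of the 4. Srsf1 had 9.63 ± 0.70 in HAB and 10.55 ± 0.98 in LAB in CeA, and 10.94 ± 0.67 and 10.34 ± 0.76 in NAc. Mtss1 had 9.61 ± 0.79 and 10.56 ± 0.77 in CeA, and 10.35 ± 0.72 and 9.82 ± 0.56 in NAc. Of the 142 probes 113 were higher in CeA than in NAc in HAB mice and 12 in LAB mice. Of the 139, 19 were higher in CeA in HAB mice and 102 in LAB mice, counts that partly follow from the choice of probes.

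The 2 dye orientations are separate sets of arrays of the same pools. When probes at 1.3-fold in opposite directions were chosen on the arrays with HAB in Cy3, 38% of the 553 that were higher in CeA had both signs again on the arrays with HAB in Cy5, where 22.7% of all probes had these signs. For the 399 that were lower in CeA the share was 31.6% compared with 21.7%. Chosen with HAB in Cy5 and read with HAB in Cy3, the shares were 36.2% of 520 compared with 23% and 44.2% of 428 compared with 24.8%. At 1.3-fold in both regions and both orientations there were 59 and 29 probes.

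In the other 5 regions, with 10 arrays each, the opposite probes had medians nearer to 0. The 142 probes had median line ratios of 0.15 in the paraventricular nucleus (PVN), 0.01 in the medial amygdala (MeA), -0.16 in the basolateral amygdala (BLA), -0.23 in the supraoptic nucleus (SON) and -0.40 in the cingulate cortex (Cg). In Cg 119 of the 142 were below 0, the direction of NAc. The 139 probes had 0.29 in Cg, with 114 above 0, and medians between -0.14 and 0.11 in PVN, MeA, BLA and SON. The BLA, which borders the CeA, was below 0 for 98 of the 142 and for 111 of the 139. Over all probes the shares above 0 were 49.2% to 51.2% in the 7 regions.

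**Figure D4:**
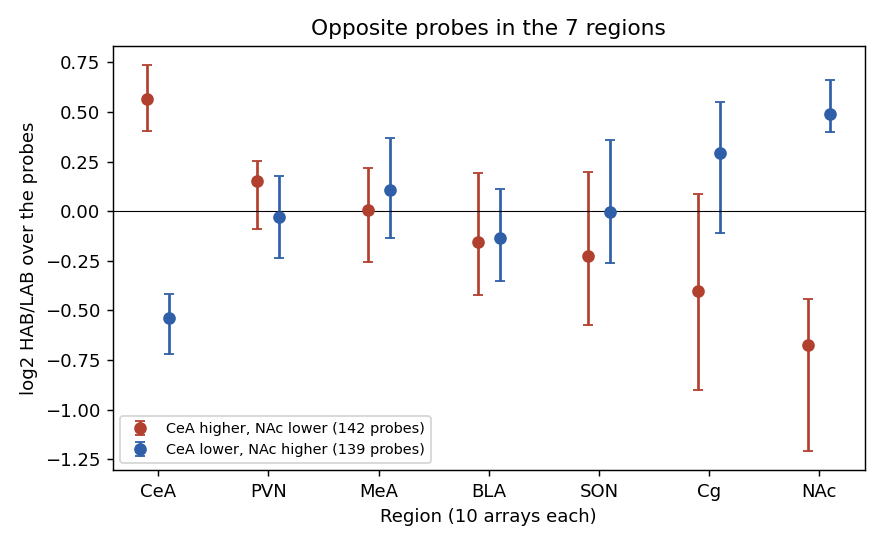
Log2 HAB/LAB of the probes with opposite line differences in the 7 regions, as the median (point) with the range from the 10th to the 90th percentile of the probes (bar). CeA and NAc chose the probes. In Cg the medians are -0.40 and 0.29, on the side of NAc.

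Just inside the limit of 1.3-fold lay an unnamed expressed sequence with 0.38 in CeA and -0.58 in NAc, and RAB1 with -0.52 and 0.38. Just outside it lay an unnamed sequence with 1.03 and -0.38 and chondroitin sulfate proteoglycan 6 with -0.39 and 0.38.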

How the data were processed

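Per the labels and methods, the authors hybridized amplified RNA to MPIP24k cDNA arrays and deposited scanner intensity values per spot and channel, not background subtracted, with a table of log2 ratios normalized globally, by loess and for uneven printing. That table's values were already turned to HAB/LAB (r with the scanner's log2 Cy5/Cy3 from -0.95 to -0.89 with HAB in Cy3 and from 0.94 to 0.97 with HAB in Cy5) and centered (column medians -0.0041 to 0.009), and it was used as an alternative. Its 50 other sample columns were not used.

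Here intensities were corrected with limma's normexp (offset 50), normalized by loess (span 0.4, controls at weight 0) and by the median of each of 48 print blocks, and turned to log2 HAB/LAB. limma (3.58.1, in R 4.3.3) was fitted to the 20 arrays with region means and a dye term for each region, and the contrast CeA minus NAc was adjusted by Benjamini-Hochberg over 22824 probes. Spots of controls or without cDNA (1368) were left out. A channel lay above the empty spots when over their median plus 2 median absolute deviations. Levels came from Aquantile normalization. The fit was checked on simulated data with independent noise between arrays. That check does not bear on effects of pool, date, dye or brightness. Array names were matched to RefSeq symbols for 7216 probes. The alternatives changed background correction, normalization, dye term, arrays, weights and fold limits, and the closing section gives part of them. Without counts, the number of arrays limits the precision.

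Named genes were the 10 largest contrasts each way among named probes above the empty spots, the smallest adjusted p in each list, the study's candidates, and the probes next to the 1.3-fold limit. Probes named beside these, in groups of like function, were chosen after their values were seen. Members and lists were chosen with earlier results of these data known. A result among the named genes is not reported here.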

Additional observations from a re-analysis of the deposited data

Results flagged for a closer look

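The line difference itself differed between CeA and NAc for 677 probes by limma's test of the contrast, and 281 of these had opposite differences of at least 1.3-fold.

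Within the groups of 5 arrays of 1 region and dye orientation, some arrays stood far from the other 4. Among the CeA arrays with HAB in Cy3, replicate 4 had a median LAB intensity of 2480.5, where the others lay between 320 and 587, and replicate 1 had 25% of probes above the empty spots in the HAB channel, compared with 54.6% to 65.1%. On the same replicate 4 the log2 HAB/LAB was 1.27 for Mobp (others 0.40 to 0.64), 1.34 for calpain small subunit 1 (others -0.11 to 0.17) and 0.89 for Mrfap1 (others -1.77 to -1.30). With HAB in Cy5 in CeA, replicate 5 had -0.30 for DNA polymerase mu (others 0.00 to 0.11) and replicate 3 had -0.18 for sperm associated antigen 9 (others at or below -0.83). In NAc with HAB in Cy3, replicate 1 had -1.08 for Rnf141 (others -1.33 to -1.28) and replicate 5 had -1.52 for calpain small subunit 1 (others -1.79 to -1.72). In NAc with HAB in Cy5, replicate 1 had -0.39 for the short coiled coil protein (others -0.96 to -0.83). Chance flags about 1 in 20 such groups, and it was 8 of 80 among the named probes. The cause was not tested.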

How the results depend on the processing

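The 677 probes with a different line ratio became 2271 with the median of each array only, 435 without a dye term, 64 with the arrays of HAB in Cy3 alone, 74 with HAB in Cy5 alone and 1074 with all 70 arrays in 1 fit. With a term for the smaller header date of CeA they became 413, and such a term cannot part the date of NAc from the region. The 281 opposite probes became 1171 with the median only, 114 in the authors' table, 57 and 60 with HAB in Cy3 or Cy5 alone, 504 at 1.2-fold, 61 at 1.5-fold, 49 with 10 of 10 arrays of each region in its direction and 88 when 1.3-fold was asked on each orientation. The 231 probes counted in CeA became 2027 and 3858 on the 5 arrays of 1 orientation, 486 on the 8 arrays of 1 date, 618 without CeA replicates 1 and 4 with HAB in Cy3 and 16 by limma on the region's arrays, and the 454 in NAc became 269 in the authors' table, 2535 and 2255 on 1 orientation and 290 by limma. Fewer arrays to satisfy raise such counts by construction, and the cause of the other changes was not tested. Of 20 named probes with the largest contrasts, 12 passed in the authors' table, which held 14 of them, and 11 and 13 in 1 orientation alone. No contrast of these 20 changed sign under any alternative run that held the probe. The counts per region use no model, so the dye term, the 70 arrays, blocks and weights give them no value.

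Leaving out 1 array gave 522 to 739 probes with a different ratio, 251 to 304 opposite probes, 231 to 481 counted in CeA, 454 to 559 counted in NAc, and 19 to 20 of the named probes. The CeA count rose to 481 without replicate 4 and to 356 without replicate 2 of the arrays with HAB in Cy3. With the replicate block 519 probes differed, 261 were opposite and 20 of the named probes passed. The replicate numbers did not pair the arrays, since same-numbered arrays had deviations correlating between -0.05 and 0.04. Brightness classes as a centering and a loess span of 0.1, both chosen after seeing the data, left 217 and 261 opposite probes, of which 181 and 247 were among the 281. The 2 pools per region and the different dates limit every result.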
